A study of Homo sapiens with 8 samples.

Results

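The mitochondrial ribosome, or mitoribosome, translates the few mRNAs that the mitochondrial genome encodes, all of them for subunits of oxidative phosphorylation. Its 2 ribosomal RNAs are made in the organelle, whereas its proteins are encoded in the nucleus, made in the cytosol and imported. Many of these proteins have a bacterial counterpart, and others are found only in mitochondria. Liver cells are rich in mitochondria, and HepG2 cells, an established hepatocellular carcinoma line, depend on the same machinery for their respiratory chain. The genes described here are the protein-coding genes whose symbol starts with MRPL or MRPS followed by a number, with DAP3 and PTCD3. They were found by symbol among the 86369 rows of the count matrix, and pseudogenes, antisense and readthrough genes (87 rows of the same symbol pattern) were left out. There were 80 members, 29 of the small subunit and 51 of the large subunit. MRPS18A and MRPS30 were counted with the large subunit, where their proteins sit in the human mitoribosome in spite of their names.

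The HepG2 cells received, by lipofection, either an siRNA that targets NAT10 (siNAT10) or a negative control siRNA (siControl), and their RNA was taken after 2 days. NAT10 is an enzyme that acetylates cytidine in RNA. Each group had 4 libraries, 2 in batch 1 and 2 in batch 2 as labelled, and no sample was left untransfected. The labels do not say what differed between the batches, give 1 cell line only and do not give the siRNA sequence. Nothing in them says that replicates were separate cultures, so p-values measure the spread between these libraries, which may be technical. The assay was Lexogen QuantSeq, which reads mRNAs near their poly(A) tail, and counts per gene were deposited.

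The libraries held 9731718 to 27977110 counts. NAT10 stood at 39.2 to 77.8 CPM (counts scaled by library size) in siControl and at 12.2 to 22.3 CPM in siNAT10, means of 52.6 ± 17.2 and 16.9 ± 5.04 (SD, n = 4 each). Its fitted log2 fold change was -1.66 (SE 0.14, edgeR adjusted p = 2.0e-05; exact two-sided permutation test, p = 0.029, the smallest that 70 arrangements allow). Exchanged within batches only, the 36 arrangements gave p = 0.056 in the exact test, again the smallest they allow. Of the 10 hepatocyte markers, 9 exceeded 1 CPM on average over the 8 libraries, the lowest of them SERPINA1 at 1.7 to 13.2 CPM. APOB, the exception, reached 0.328 CPM in siControl replicate 3 and was at 0 in every other library. The hepatocyte list summed to 9423 to 9899 CPM in siControl and 7605 to 8171 CPM in siNAT10. It moved with the siRNA, and its part in the results on mitoribosomal genes was not tested. None of the 6 fibroblast markers, the 4 endothelial markers or KRT5 and KRT14 exceeded 1 CPM on average over the 8 libraries. PDGFRB reached at most 1.27 CPM in a library, and COL1A2, COL3A1, DCN, LUM, KDR, KRT5 and KRT14 were at 0. Among 5 leukocyte markers only CD68 exceeded 1 CPM on average, and PTPRC, CD3E and MS4A1 were at 0. The leukocyte marker CD14 stood at 1.3 ± 0.557 CPM in siControl and 0.561 ± 0.362 CPM in siNAT10 (SD, n = 4 each; edgeR adjusted p = 0.2). These lists summed to at most 1.38 CPM (fibroblast), 0.796 CPM (endothelial) and 3.9 CPM (leukocyte) in a library. A change in the number of cells and a change in RNA per cell cannot be told apart in bulk libraries.

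Of the 80 members, 71 had enough counts to be tested, 24 of the small and 47 of the large subunit. The other 9 had few counts or none. MRPL23, MRPL45, MRPL53 and MRPS18B had 0 counts in every library, 0 of 150446672 counts, which allows a level of up to 0.0199 CPM by counting error alone. MRPL38, MRPS6, MRPS12, MRPS24 and MRPS36 had 4 to 39 counts summed over the 8 libraries, with no more than 12 in any one. MRPS36 keeps its name although its protein is now placed in the oxoglutarate dehydrogenase complex. In GENCODE 44, other genes on the same strand cover 99.2% of the exonic bases of MRPL53, 94.3% of MRPL38, 90.9% of MRPS24 and 33.1% of MRPS6. For MRPL23, MRPL45, MRPS12, MRPS18B and MRPS36 that share was 0%. How the deposited counts treated reads that fall in 2 genes or map to several places is not given in the sources used here, and its part in these low counts was not tested. A count near 0 here is therefore not a measure that the gene was silent.

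Among the tested members, levels ran over almost 3 orders of magnitude. Because a QuantSeq fragment stands for the end of a transcript, CPM was not divided by transcript length. The median member stood at 56.6 CPM in siControl, 51 members lay between 10 and 100 CPM, 18 above 100 CPM and 2 below 10 CPM. The subunits had like medians, 60.9 CPM for the small and 56.2 CPM for the large. MRPL33, a small protein with a bacterial counterpart, had the highest level at 367 ± 135 CPM (SD, n = 4) in siControl. MRPS27, a pentatricopeptide repeat protein, led the small subunit at 233 ± 9.69 CPM. MRPL46 (0.4 ± 0.228 CPM) and MRPS5 (1.56 ± 0.711 CPM) were the lowest in each subunit. Both lie largely within exons of other genes on the same strand, 73.4% of MRPL46 and 97.1% of MRPS5. MRPL2, MRPL12 and MRPS28 were the other tested members with over 50% of their exonic bases so covered, and values for these 5 genes are uncertain. MRPL19 (22.3%) and MRPS25 (43.4%) are covered less, but another gene's exons on their strand lie within the 500 bases at their 3′ end. Their values share that limit. On the opposite strand, 83.6% of MRPS18C and 60.6% of MRPS18A are covered, and the antisense transcript MRPL20-AS1 held 514 to 1458 counts per library. Other tested members had smaller shares or none. For MRPS16 the share was 15.3%, and exons of DNAJC9-AS1 lie within the 500 bases at its 3′ end. Without a stated strand setting, reads of these members and their partners cannot be told apart.

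Beyond their name, some members share promoter motifs, each found in a minority of them. RefSeq promoter windows (GRCh38.p14, 250 bases before to 50 after the start) were matched by symbol for 71 of the 80 members, and 3 motifs were searched on both strands. The YY1 motif AAGATGGCG, whose letters include ATG, was in 14 of 71 member promoters (19.7%) and in 1.85% of all 27305 promoters of the table. The ETS motif CCGGAAGT, bound by factors such as GABP, was in 11 of 71 (15.5%, against 4.44% of all). The NRF1 motif GCGCATGC, bound by a regulator of nuclear genes for mitochondria, was in 6 of 71 (8.45%, against 3.27% of all). On the gene's own strand, the YY1 motif fell within the first 50 transcribed bases in 11 of 71 members (15.5%) and in 1.06% of all promoters. The following windows show that position in some of those 11 members, 5′ to 3′ on the gene's strand, with the YY1 motif in capitals. They lie at chr2:86106235-86106262 (PTCD3, plus strand), chr5:44808950-44808977 (MRPS30, plus strand), chr9:101398578-101398605 (MRPL50, minus strand) and chr12:93467512-93467539 (MRPL42, plus strand), and the motif starts 10, 13, 23 and 8 bases after the start site.
PTCD3: agagaaatcaAAGATGGCGgttgtatct
MRPS30: atcgcgggcaAAGATGGCGgcggccagg
MRPL50: gatctcatcgAAGATGGCGgcgcgatct
MRPL42: ggattgaaacAAGATGGCGggttcgtgg
A match describes letters and is not a site of binding. In addition, 18 of the 80 members have a coding neighbour that starts within 1000 bases on the opposite strand. MRPL46 and MRPS11 are such a pair of members, 63 bases apart, and MRPL36 faces NDUFS6, a complex I gene, at 41 bases.

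The main question was whether transcripts for mitoribosomal proteins change when NAT10 is depleted. With batch in the model, 1 of 71 members passed an edgeR adjusted p under 0.05, MRPS16, and it was lower in siNAT10. Over all 13840 genes tested, 1.46% were called lower and 0.816% higher. No member was called higher, by edgeR or by DESeq2, and 1 had a higher value at an unadjusted edgeR p under 0.05. At that unadjusted threshold 7 of 71 members (9.86%) passed, against 15.7% of all genes. In 6 members every siNAT10 library lay below both siControl libraries of its batch (7.90% of all genes did), and in 3, MRPL16, MRPL34 and MRPL50, every one lay above (6.76% of all genes).

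As a group the members stayed close to their control level. The median log2 fold change was -0.032 over 24 small-subunit members and 0.0015 over 47 large-subunit members, beside -0.0024 over all genes tested. In the small subunit 18 of 24 fitted values were below 0 and in the large subunit 23 of 47, beside 6968 of 13840 over all genes. The small-subunit median was above 0 with library size alone (0.008) and without siControl replicate 3 (0.009). The 95% confidence interval of the fold change lay within 1.5-fold in either direction for 64 of 71 members (90.1%, against 60.2% of all genes). A larger change lies outside the interval of those 64. Related lists had like shares, 90.5% of mitochondrial translation factors, 87.7% of nuclear oxidative phosphorylation genes and 86.2% of cytosolic ribosomal protein genes. Others were lower, with 66.7% of transcription regulators and 61.5% of mitochondrially encoded mRNAs. The median SE was 0.11 for the members and 0.14 over all genes, and its part in these shares was not tested. Small-subunit transcripts summed to 1932 ± 145 CPM in siControl and 1858 ± 163 CPM in siNAT10 (SD, n = 4 each). Large-subunit transcripts summed to 3791 ± 412 and 3777 ± 497 CPM. The siNAT10 sums were 96.1% and 99.6% of the siControl sums, differences smaller than the spread between libraries.

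**Figure D1:**
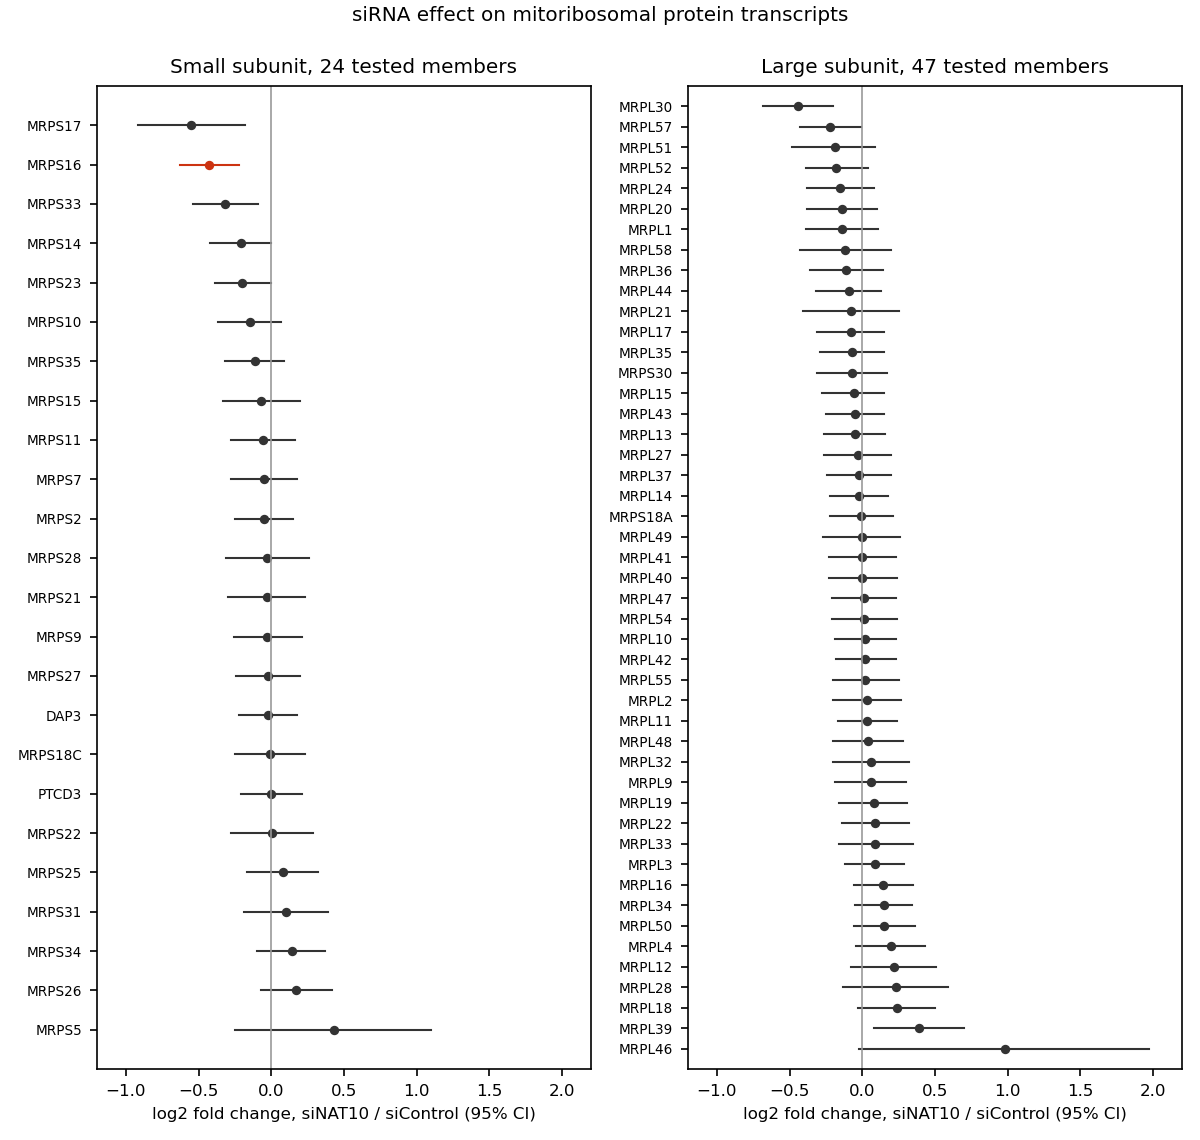
Log2 fold change of each tested member, siNAT10 over siControl with batch in the model (horizontal axis), small subunit left and large subunit right. Points are fitted values and lines 95% confidence intervals from edgeR; MRPS16 (-0.43, red) is the only member with an adjusted p under 0.05, and MRPL46 and MRPS5 have the widest intervals.

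MRPS16 is a small-subunit protein with a bacterial counterpart, and inherited defects in it cause a failure of mitochondrial translation. The limit given above on opposite-strand reads holds for MRPS16. Its level was 160, 145, 150 and 143 CPM in siControl replicates 1 to 4 and 111, 108, 121 and 105 CPM in siNAT10 replicates 1 to 4. Every siNAT10 library was below every siControl library, in both batches. The mean was 149 ± 7.46 CPM in siControl and 111 ± 6.93 CPM in siNAT10 (SD, n = 4 each). The fitted log2 fold change was -0.43 (SE 0.10, edgeR adjusted p = 0.029), or 74.3% of the control level. Within batch 1 alone it was -0.47 (edgeR adjusted p = 0.1) and within batch 2 alone -0.38 (edgeR adjusted p = 0.69). The size was stable, from -0.47 to -0.38 over all alternatives, but the call was not: it was lost when any of 5 libraries was left out (siControl replicates 1 and 2, siNAT10 replicates 1, 2 and 4; edgeR adjusted p from 0.058 to 0.12), without the batch term (0.26) and with all libraries thinned to the smallest total (0.055).

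MRPS17, also of bacterial descent, had the most negative fitted value of the small subunit. It stood at 8.18, 6.62, 18.1 and 13.8 CPM in siControl and 6.02, 4.97, 12.8 and 7.53 CPM in siNAT10. Every siNAT10 library was below both controls of its batch, yet siNAT10 replicate 3 was above both siControl libraries of batch 1. The log2 fold change was -0.55 (SE 0.17, edgeR adjusted p = 0.12), and -0.55 with adjusted p = 0.045 in the edgeR fit with a replicate block. That block pairs libraries by replicate number, a pairing that the labels do not state. MRPS33, a protein found in mitochondria and not in bacteria, measured 57.8, 62.5, 67.6 and 57.1 CPM in siControl and 42.2, 45.5, 58.3 and 52.1 CPM in siNAT10. The groups were apart in batch 1 and overlapped in batch 2; the log2 fold change was -0.32 (SE 0.11, edgeR adjusted p = 0.14). MRPS14 (-0.21, edgeR adjusted p = 0.31) and MRPS23 (-0.20, adjusted p = 0.33) completed the 5 most negative of the small subunit, and neither passed the test.

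In the large subunit MRPL30 had the most negative value. Its levels were 45.4, 42.2, 52.8 and 50.9 CPM in siControl and 31, 31.7, 46.3 and 32.4 CPM in siNAT10. The siNAT10 libraries were below both controls of their batch, and replicate 3 stood apart from the other siNAT10 libraries. The log2 fold change was -0.44 (SE 0.11), and its edgeR adjusted p of 0.055 missed the threshold. It passed with the replicate block, whose pairing the labels do not state (-0.45, edgeR adjusted p = 0.026), and without siNAT10 replicate 3 (-0.55). MRPL57 had a value of -0.22 (edgeR adjusted p = 0.3), MRPL51 of -0.19, MRPL52 of -0.18 and MRPL24 of -0.15, none of which passed.

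**Figure D2:**
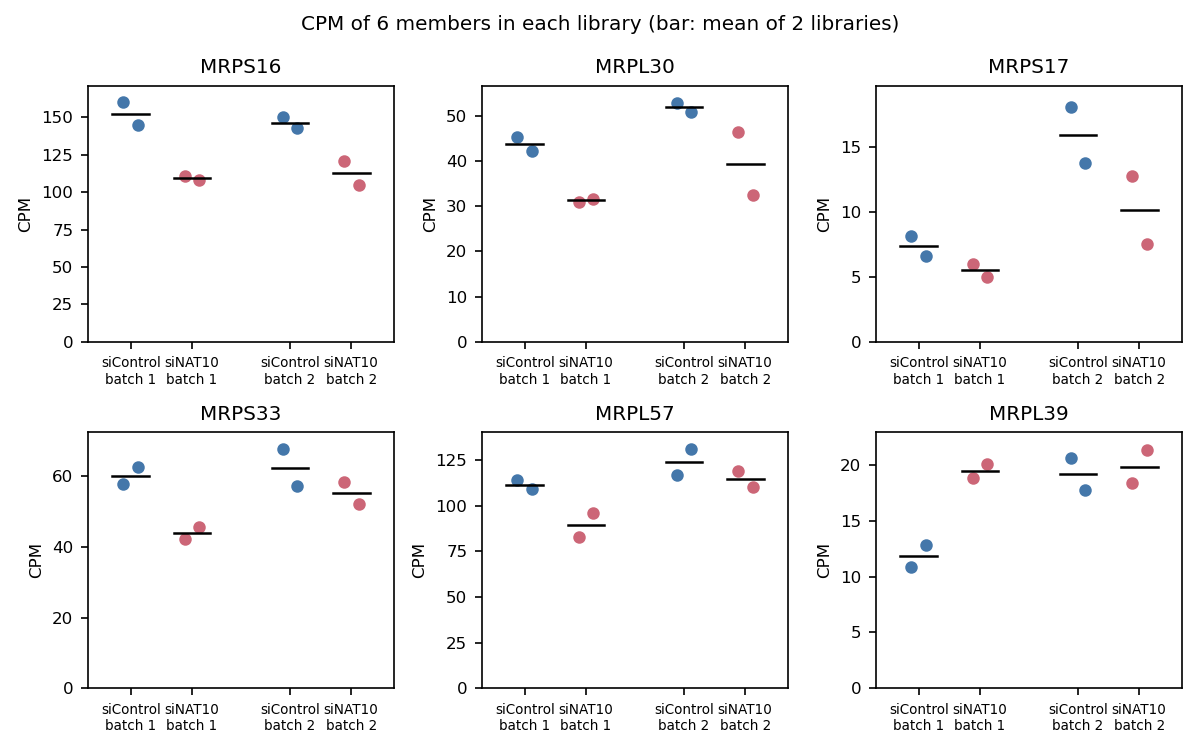
CPM (vertical axes, starting at 0) of 6 members in each library, siControl in blue and siNAT10 in red, split by batch; the black bar is the mean of 2 libraries. MRPS16 lies at 105 to 121 CPM in siNAT10 and 143 to 160 CPM in siControl in both batches, whereas MRPL39 is apart in batch 1 and overlaps in batch 2.

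On the positive side MRPL39, which resembles part of a tRNA synthetase, had a fitted log2 value of 0.39 (SE 0.15, edgeR adjusted p = 0.19). It measured 10.9 and 12.8 CPM in the siControl libraries of batch 1 and 18.8 and 20.1 CPM in the siNAT10 libraries of that batch. In batch 2 the values were 20.6 and 17.8 CPM in siControl and 18.4 and 21.3 CPM in siNAT10. The difference was thus seen in batch 1 (0.73, edgeR adjusted p = 0.032 in that batch alone) and not in batch 2 (0.05). The interaction of batch and siRNA for MRPL39 was -0.68 (SE 0.25, edgeR adjusted p = 1), so the effects were not shown to differ. No member passed that interaction test in edgeR or DESeq2 (0% of all genes in edgeR), and 2 of 71, MRPL28 (0.68) and MRPL39, had an unadjusted edgeR p under 0.05, against 3.04% of all genes.

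MRPL46 had the largest positive value, 0.98 (SE 0.47, edgeR adjusted p = 0.33), at 0.4 ± 0.228 CPM in siControl and 0.735 ± 0.163 CPM in siNAT10 (SD, n = 4 each). MRPS5 followed at 0.43 (SE 0.32, edgeR adjusted p = 0.57). Both rest on few counts, and neither value was distinguishable from 0. MRPL18, which is linked to the import of ribosomal RNA, MRPL12, a stalk protein also known to bind the mitochondrial RNA polymerase, and MRPL28 had values of 0.24, 0.22 and 0.23. MRPS26 (0.17), MRPS34 (0.14), MRPS31 (0.10) and MRPS25 (0.08) were the other small-subunit members of highest value. None of these passed, with edgeR adjusted p from 0.39 for MRPL18 to 0.81 for MRPS25.

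The members with other known roles showed little difference. DAP3, a GTP-binding protein of the small subunit first known as a death-associated protein, was at 84 ± 3.55 CPM in siControl and 82.9 ± 7.68 CPM in siNAT10 (SD, n = 4 each), a log2 fold change of -0.02 with a 95% interval from -0.22 to 0.18. PTCD3, a pentatricopeptide repeat protein near the mRNA entry of the small subunit, was at 84.3 ± 4.62 and 84.2 ± 6.67 CPM, with an interval from -0.21 to 0.21. Of the 3 paralogs related to a single bacterial protein, MRPS18A (interval -0.22 to 0.21) and MRPS18C (-0.25 to 0.23) were tested and MRPS18B had no counts. For MRPS18A and MRPS18C, the limit given above on opposite-strand reads holds here and in the batch comparison. MRPS30 had an interval from -0.31 to 0.17. The most abundant members, MRPL33 (0.09, edgeR adjusted p = 0.77) and MRPS27 (-0.02, adjusted p = 0.95), did not pass either.

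**Figure D3:**
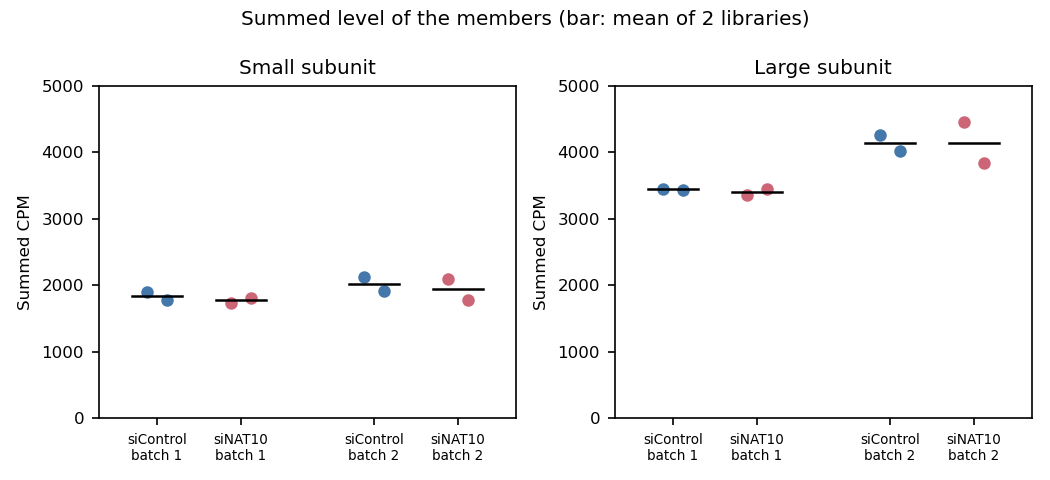
Summed CPM (vertical axes, starting at 0) of the members of each subunit in each library, siControl in blue and siNAT10 in red, split by batch; the black bar is the mean of 2 libraries. The siRNA groups overlap in both batches, and the large-subunit sums of batch 2 (3842 to 4454 CPM) all lie above those of batch 1 (3364 to 3455 CPM).

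An earlier look at these data had raised 2 heptamers as candidates for siRNA seed matches, so their presence in the members' 3′ UTRs was counted, without a test, in the canonical GENCODE 44 transcripts. GTCTCTA was in 10 of 71 tested members (14.1%) and in 15.4% of the other tested genes. The 10 carriers had a median log2 fold change of -0.086, with 8 of 10 below 0, and the 61 members without it -0.008, with 33 of 61 below 0. Among other genes the medians were -0.06 for 1668 carriers, of which 59.7% were below 0, and 0.008 for the rest. The 3′ UTRs of member carriers were longer, with a median of 2912 bases against 392. Of the 5 members with the most negative fold change, 4 carried the heptamer, namely MRPS16, MRPL30, MRPS33 and MRPL57, and MRPS17 did not. The other carriers were MRPS10 (-0.15), DAP3 (-0.02), MRPS18C (-0.0086), PTCD3 (-0.0016), MRPL42 (0.02) and MRPS25 (0.08). The heptamer was raised from these same data and the 5 members were picked by fold change, so that count is a description only. The sites of MRPS16, MRPL30 and MRPL57 are printed because these carriers had values among the most negative, 5′ to 3′ in the transcript's sense with the heptamer in capitals.
MRPS16: agcaagaccccGTCTCTAcaaaaacttaa
MRPL30: aaaacctatttGTCTCTAtgtaaattttt
MRPL57: tgataaaacccGTCTCTActaatacaaaa
The heptamer lies 1745 bases into the MRPS16 3′ UTR of 2003 bases and 1238 bases into the MRPL30 3′ UTR of 3856 bases. The second heptamer, TTACAAA, was in 11 of 71 members, whose median was -0.0016, against -0.02 in the 60 without it, while other genes that carried it had a median of 0.065. Whether a site had a part in any change was not tested.

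The members differed more between the batches than between the siRNAs. In batch 2 against batch 1, with the siRNA in the model, 24 of 71 members (33.8%) were higher in batch 2 at an edgeR adjusted p under 0.05, where 13.0% of all genes were. None was called lower by edgeR or DESeq2, although 12.2% of all genes were by edgeR, and 2 members had a lower value at an unadjusted edgeR p under 0.05. Without siNAT10 replicate 4, MRPS5 was called lower. The calls were 19 of 47 in the large subunit (40.4%) and 5 of 24 in the small subunit (20.8%). The difference between those shares was not tested. The median log2 difference was 0.27 in the large and 0.14 in the small subunit, and members of both subunits together summed to 117% of their batch 1 level. They made up 0.503% to 0.646% of a library's counts.

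MRPS17 had the largest batch difference, 6.45 ± 1.34 CPM in batch 1 and 13.1 ± 4.36 CPM in batch 2 (SD, n = 4 each), a log2 difference of 1.01 (SE 0.18, edgeR adjusted p = 6.3e-04). MRPL33 measured 254, 250, 325 and 265 CPM in batch 1 and 511, 453, 546 and 394 CPM in batch 2, without overlap. Its log2 difference was 0.80 (SE 0.12, edgeR adjusted p = 2.1e-04). MRPL18 stood at 35.2 ± 4.53 CPM in batch 1 and 60.9 ± 12 CPM in batch 2, also 0.80 (SE 0.13, edgeR adjusted p = 3.1e-04). MRPS16 did not differ by batch beyond its error (-0.0037, SE 0.10). Of the 24 called members, 11 were also called whichever library was left out: MRPL1, MRPL14, MRPL18, MRPL27, MRPL33, MRPL34, MRPL36, MRPL50, MRPL54, MRPS17 and MRPS18C. The count itself ran from 14 to 27, and it fell by over 1.5 times without siControl replicate 2 (15), siNAT10 replicate 1 (14) or siNAT10 replicate 3 (15).

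**Figure D4:**
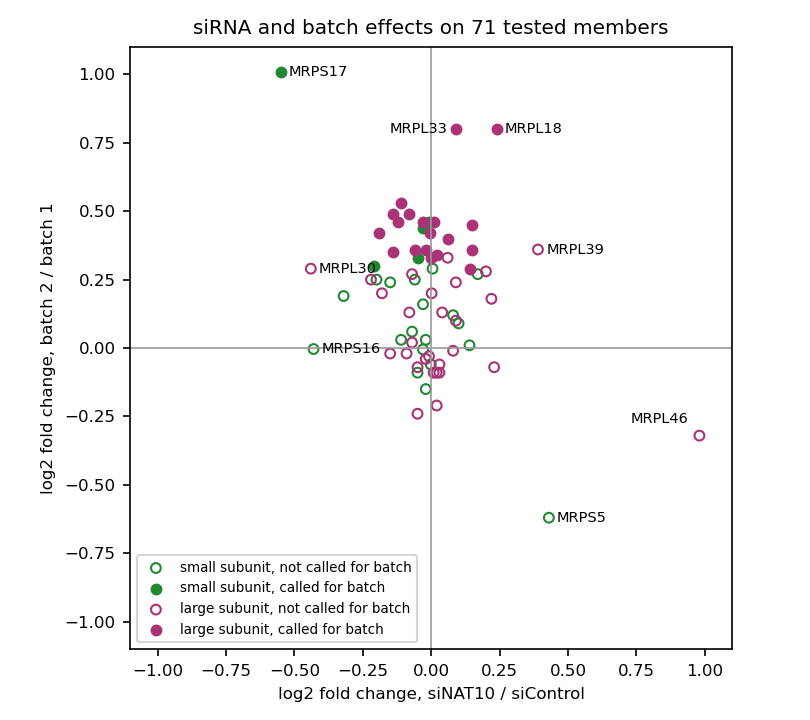
Log2 fold change for the siRNA (horizontal axis) and for batch 2 over batch 1 (vertical axis) of the 71 tested members, small subunit in green and large subunit in purple; filled points have an adjusted p under 0.05 for batch. All 24 filled points lie above 0 on the batch axis, while most members lie near 0 on the siRNA axis.

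Mitoribosomal transcripts are short, with a median canonical length of 1354 bases against 3325 bases for all tested protein-coding genes. The median length was 1026 bases for the 24 called members and 1500 bases for the 47 others. In length classes chosen after the data were seen, all 6 members under 700 bases were called higher in batch 2, where 22.9% of other protein-coding genes of that length were. From 700 to under 1000 bases the count was 6 of 15 (16.3% of other genes), from 1000 to under 1500 bases 5 of 19 (13.1%) and from 1500 to under 2500 bases 6 of 17 (14.7%). Above that it was 1 of 7 (14.6%) and, from 4000 bases, 0 of 7 (12.6%). Each class holds fewer than 20 members, so no trend is drawn from them. The part of length, of RNA quality and of library preparation in the batch difference was not tested.

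**Figure D5:**
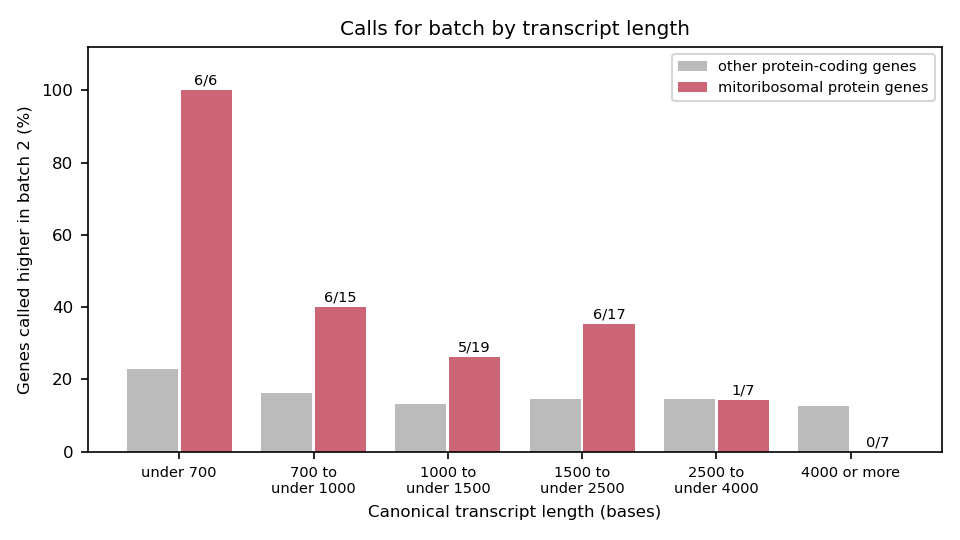
Percentage of genes called higher in batch 2 (vertical axis) by class of canonical transcript length in bases (horizontal axis), other protein-coding genes in grey and mitoribosomal protein genes in red, with the number of members called of those tested above each red bar. The members' share is above that of other genes of like length in the 4 classes under 2500 bases.

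The promoter motifs were also counted among the members called for batch. Of the 64 tested members with a promoter sequence, the YY1 motif was in 11, of which 2 were called for batch (18.2%), against 19 of the 53 without it (35.8%). The ETS motif was in 9, of which 4 were called (44.4%), against 17 of 55 without it (30.9%). The NRF1 motif was in 5, of which 1 was called, against 20 of 59. These are counts without a test.

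The genes around the mitoribosome gave no edgeR call for the siRNA. None of the tested genes of mitoribosome assembly (31), mitochondrial translation factors (21), mitochondrial aminoacyl-tRNA synthetases and related enzymes (18), mitochondrial transcription and DNA maintenance (12) or 9 transcription regulators passed in edgeR. At an unadjusted edgeR p under 0.05 there were 3, 1, 2, 0 and 3 of them, and DESeq2 called 0, 0, 1, 0 and 2. With 1.46% of all genes called lower and 0.816% higher in edgeR, a count of 0 edgeR calls in lists of this size is near the background. At the unadjusted threshold the shares were 9.68%, 4.76%, 11.1%, 0% and 33.3%, against 15.7% of all genes. The share of all genes that DESeq2 called is not given here. Its calls in this and the other lists are therefore not set against a background. METTL17, an assembly factor, measured 45.6 ± 1.95 CPM in siControl and 54.9 ± 1 CPM in siNAT10 (SD, n = 4 each), a fitted log2 difference of 0.27 (edgeR adjusted p = 0.16). TRMU, which modifies mitochondrial tRNAs, was at 0.34 (edgeR adjusted p = 0.16), and GATC, part of the enzyme that completes the charging of the glutamine tRNA, at -0.38 (edgeR adjusted p = 0.079), called by DESeq2. TEFM, the mitochondrial transcription elongation factor, was at 0.41 (edgeR adjusted p = 0.36). GABPB2, a subunit of GABP, measured 4.39 ± 1.08 and 2.74 ± 1.5 CPM, a fitted log2 difference of -0.80 (edgeR adjusted p = 0.081), and it was called by DESeq2. The other regulator that DESeq2 called, MYC, was higher, at 22.8 ± 3.97 CPM in siControl and 31.2 ± 3.06 CPM in siNAT10, a fitted value of 0.46 on the log2 scale (edgeR adjusted p = 0.083). AURKAIP1, a small-subunit protein whose symbol the rule does not take, was at -0.15 (edgeR adjusted p = 0.53), and none of 3 such proteins passed at an unadjusted edgeR p under 0.05 or in DESeq2.

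The RNAs that the mitoribosome contains and reads were not called either. Because the assay reads RNA near a poly(A) tail, their counts need not follow the full amount of each RNA, here and for batch. MT-RNR2, the large ribosomal RNA, stood at 3611 ± 496 CPM in siControl and 3275 ± 883 CPM in siNAT10 (SD, n = 4 each), a difference of -0.17 on the log2 scale (edgeR adjusted p = 0.65). The batches differed in sign, -0.48 in batch 1 alone (edgeR adjusted p = 0.16) and 0.15 in batch 2 alone (adjusted p = 0.92). The interaction was 0.63 for MT-RNR2 and 0.95 for MT-RNR1, the small ribosomal RNA, both at an unadjusted edgeR p under 0.05 and an adjusted p of 1. It was above 0 for 13 of 13 mitochondrially encoded mRNAs, beside 6916 of 13840 over all genes. Of those mRNAs 3 had an unadjusted edgeR p under 0.05, against 3.04% of all genes. None was called by edgeR, so the effects were not shown to differ between batches. For the siRNA, the 13 mitochondrially encoded mRNAs had a median of -0.18, with 10 of 13 below 0 and 0 called by edgeR or DESeq2. An unadjusted edgeR p under 0.05 was found for 5 of them (38.5%), against 15.7% of all genes. Over all genes the median was -0.0024, with 6968 of 13840 below 0. MT-ND5, a complex I mRNA, had the smallest p (-0.40, edgeR adjusted p = 0.11). Of 65 nuclear oxidative phosphorylation genes 0 passed in edgeR, 10 (15.4%) had an unadjusted edgeR p under 0.05 and 2 passed in DESeq2. Their median was -0.092, and NDUFV3, of complex I, came nearest (-0.39, edgeR adjusted p = 0.055). Of 80 cytosolic ribosomal protein genes 0 passed in edgeR or DESeq2 and 5 (6.25%) had an unadjusted edgeR p under 0.05. Their median was -0.062, with RPS15 nearest (0.48, edgeR adjusted p = 0.14).

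For batch, the related lists are read against the 13.0% of all genes called higher and the 12.2% called lower in batch 2. The edgeR calls were 10 of 13 mitochondrially encoded mRNAs, 20 of 65 oxidative phosphorylation genes, 11 of 31 assembly genes and 5 of 12 genes of mitochondrial transcription. They were 2 of 21 translation factors, 3 of 18 synthetases and 5 of 80 cytosolic ribosomal protein genes. Calls lower in batch 2 were 0, 2, 4, 0, 2, 1 and 1 in the same order. Differences between the lists were not tested.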

How the data were processed

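The authors deposited one matrix of whole-number counts per gene for 8 libraries. Per the submitters' processing notes, the tools were Trim Galore 0.6.10, cutadapt 3.5, STAR 2.7.9a and featureCounts with GRCh38. The annotation, strand setting and treatment of shared reads are not given in the sources used here. The series text and the sample protocols name different orientations of the QuantSeq kit, which were not reconciled. Symbols came from GENCODE 44, which matched 61458 of 86369 rows. 0 columns were left unused.

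The test was that of edgeR 4.0.16 under R 4.3.3 (filterByExpr by group, minimum count 10; TMM; quasi-likelihood F test with batch and siRNA; Benjamini-Hochberg over the 13840 genes kept). Standard errors came from the F statistic and intervals are 95%. CPM uses TMM-scaled library sizes. DESeq2 1.42.0 was an alternative, and the code was tested on simulated data. Same-numbered libraries of the 2 groups shared deviations from their group means (r across genes 0.392, 0.384, 0.451 and 0.356 for replicates 1 to 4), so a replicate block was fitted as an alternative. Those deviations hold the batch difference: with batch means removed the correlations were -0.062 in batch 1 and 0.167 in batch 2, and no pairing beyond batch is shown. The labels state none. Counting intervals cover counting error only.

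Named genes were NAT10, members called for the siRNA, the 5 most positive and 5 most negative tested members of each subunit, 6 members of special interest, the highest and lowest in level, the 3 largest batch calls in each direction, and in each related list the called genes or the one with the smallest p. CD14, PDGFRB, APOB, SERPINA1, MYC, MT-RNR1, MRPL16, MRPL34 and MRPL50 were chosen after their values were seen. So were members named for an overlap, a motif, a heptamer or a batch call that lasted. The sequences of some sites are not reported here. The members and lists were chosen with earlier results of these data known.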

Additional observations from a re-analysis of the deposited data

Results flagged for a closer look

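MRPL30 in siNAT10 replicate 3 stood at 46.3 CPM, where the other 3 siNAT10 libraries lay between 31 and 32.4 CPM. The gap to the nearest library was 0.913 of the group's range, above the critical value for 4 samples. It was the 1 such case among 58 groups of 4 libraries examined, where chance gives about 2.9. Both siControl libraries of the same batch were higher still, at 52.8 and 50.9 CPM.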

How the results depend on the processing

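The number of members called for the siRNA was 1 and ran from 0 to 3. It was 0 in batch 2 alone and with no batch term, 2 with DESeq2 (MRPL30, MRPS16) and 3 with no filter on low counts. With each library left out in turn it ran from 0 to 2. The lone call was MRPS16, except MRPL39 in batch 1 alone and MRPL30 after thinning. With the replicate block, which treats shared numbers as a pairing, it was 3 (MRPS16, MRPL30 and MRPS17). The number called for batch ran from 14 to 27 with each library left out. Left-out fits with 1 library in a group and batch share the spread of the others. The small-subunit median ran from -0.080 to 0.009 and the large-subunit median from -0.028 to 0.042, and each alternative moved them by less than 1 SD of the median between libraries (0.076 and 0.049). No interaction was called under the 14 alternatives. The permutation of NAT10 within batches and the length classes were chosen after the data were seen. Low counts leave MRPL46 an interval from -0.02 to 1.97.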
